A study of Mus musculus with 6 samples.

Results

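The growth hormone, STAT5 and IGF1 axis was described through 10 genes, *Ghr*, *Jak2*, *Stat5a*, *Stat5b*, *Socs2*, *Cish*, *Bcl6*, *Igf1*, *Igfals* and *Igfbp3*, which were found by symbol in a table of 16123 genes. All 10 were present, each with a mean value over 10. The table compares the livers of male wild type mice (WT, strain C57BL/6Rj) with those of male *Txndc5*-deficient mice (KO, strain C57BL/6JRj-Txndc5<em2Mdnp>/Ciba), which lack the third exon of the gene of a protein disulfide isomerase of the endoplasmic reticulum. The KO line descends from a single male founder made by genome editing with Cas9. The mice of both genotypes are described as 2 months old, received a purified chow diet for 4 weeks and then fasted for 16 h. Whether that age holds for the start or the end of the diet is not stated. Each genotype was sequenced as 3 libraries of poly-A RNA, and each library pooled equal amounts of liver RNA from 3 mice, so that p-values measure the spread between these pools and not between single animals.

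Growth hormone reaches hepatocytes in pulses, binds its receptor GHR and activates the kinase JAK2, which phosphorylates STAT5A and STAT5B. The STAT5 proteins enter the nucleus and drive the genes of their own inhibitors, SOCS2 and CIS, and of the secreted proteins IGF1 and IGFALS, while the repressor BCL6 binds many of the same sites. Liver is the main source of circulating IGF1, which travels in plasma in a complex with IGFBP3 and IGFALS, and the male pattern of growth hormone release sets many differences between male and female liver.

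The deposited table holds 1 expression value per genotype, on the scale of reads divided by a size factor for each library. The pair of values carries the mean over the 6 libraries and a log2 ratio that is shrunken towards 0. Whole reads per library were recovered for 7 of the 10 members, and the values of *Ghr*, *Igf1* and *Igfals* were too high for this. The recovered libraries are called A, B and C within each genotype, by decreasing size factor, because the values show their genotype but not the number of their pool. These factors were 1.31, 1.04 and 0.886 in KO libraries A, B and C. In WT libraries A, B and C they were 1.22, 0.879 and 0.818. Clean reads per library varied far less, from 44040160 to 46050030, so that library A need not be the deepest. The A libraries of both genotypes stood apart: across 6379 genes, which are not independent replicates, the deviations of KO library A and WT library A from their genotype means had a Pearson's r of 0.694, against -0.474 to 0.356 for the other pairs of a KO and a WT library. The log2 ratios of mean recovered reads are therefore given with and without both A libraries.

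*Txndc5* itself, on the minus strand of chromosome 13, was listed at 2697 in WT and 90.8 in KO (log2 ratio -4.89), in the direction of the genotype labels. The clean reads numbered 44040160 to 45928704 per WT library and 45345810 to 46050030 per KO library. The 10 hepatocyte markers were all present, led by *Alb* at a mean value of 1331060, with log2 ratios of -0.40 to 0.20. The 6 red cell markers were all higher in KO, 4 of them with a log2 ratio of at least 0.5 (2.83% of all genes), and their summed value was 118830 in WT and 180430 in KO. None of them was at 0, and their part in the values of the members was not tested. In RNA of whole liver, fewer cells of a type and less RNA per cell cannot be told apart.

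Of the 10 members, *Socs2* alone had a log2 ratio of at least 0.5 in size, on the lower side in KO, where 7.3% of all genes were past the same limit and 10.1% were past it in either direction. Its log2 ratio was -1.08, and 0.769% of all genes had a log2 ratio of 1 or more in size. At a limit of 0.25 the count was 7 of 10, where 33.9% of all genes were past it. Centred on the median of genes whose mean value reached 1, *Ghr*, *Igf1* and *Jak2* fell inside this limit (-0.21, -0.22 and -0.24). The share of all genes after centring is not given here. The 9 members other than *Socs2* had deposited log2 ratios between -0.30 and 0.39. Of the 10, 6 were lower and 4 higher in KO. The median of their log2 ratios was -0.24, against -0.04 for all genes, 56.7% of which were lower in KO. None of the 7 members with recovered reads had KO libraries that all lay on one side of all WT libraries, a separation found in 5.5% of the 6379 genes with at least 60 recovered reads in sum after normalization (*Stat5b* not counted). The plot of the members among all genes shows *Socs2* by itself on the left and a cluster of 5 members just below 0.

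**Figure D1:**
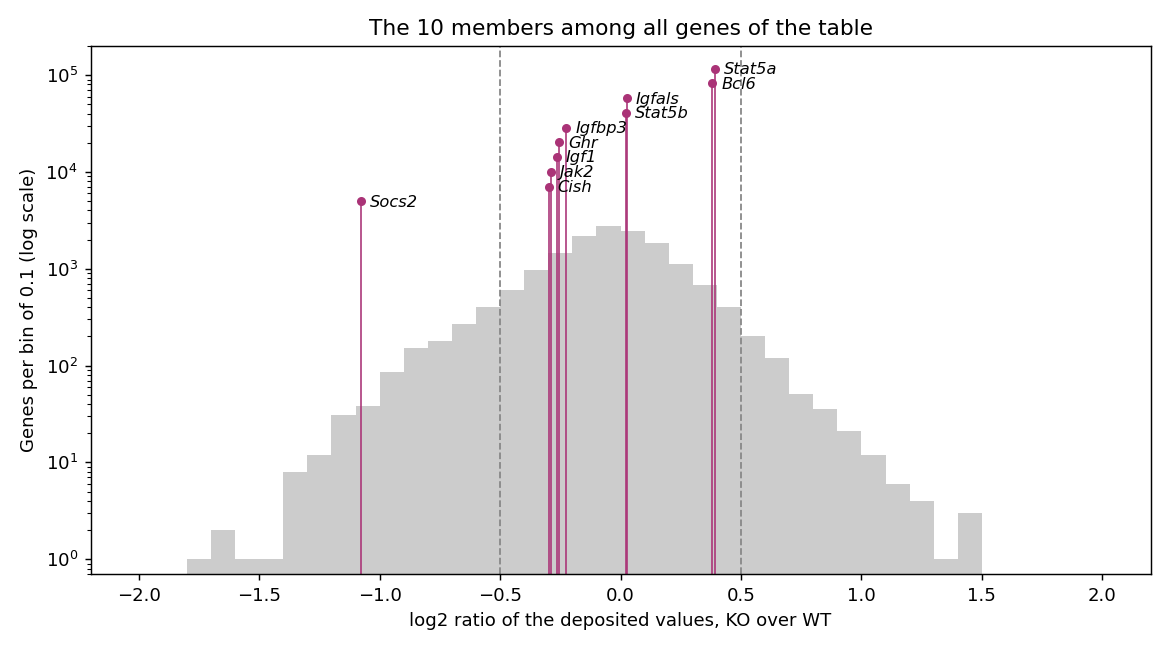
Log2 ratio of the deposited values, KO over WT, on the horizontal axis, and the number of genes per bin of 0.1 on a log vertical axis (grey), with a vertical line at the ratio of each member; the heights of the lines only separate the names, and the dashed lines mark the limit of 0.5. *Socs2* lies at -1.08, *Cish*, *Jak2*, *Igf1*, *Ghr* and *Igfbp3* between -0.30 and -0.23, *Stat5b* and *Igfals* at 0.02 and 0.03, and *Bcl6* and *Stat5a* at 0.38 and 0.39, while *Txndc5* is outside the plotted range.

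*Ghr* encodes the growth hormone receptor and lies on the minus strand of chromosome 15 (GRCm38, chr15:3317760-3583492). It was listed at 2933 in WT and 2460.5 in KO (log2 ratio -0.25). The WT value was 1.19 times the KO value, with no replicate check, since no reads per library were recovered, and 20.8% of all genes had a lower log2 ratio.

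*Jak2*, the kinase bound to the receptor, lies on the plus strand of chromosome 19 (chr19:29251828-29313080) and was listed at 59.4 in WT and 48.6 in KO. The libraries held 89.0, 44.4 and 48.9 normalized reads in WT libraries A, B and C and 76.2, 38.6 and 27.1 in KO libraries A, B and C. The A library was the highest in each genotype and the groups overlapped. The means were 60.8 ± 24.6 in WT and 47.3 ± 25.7 in KO (SD, n = 3 libraries each), and the difference was within the spread of the libraries (exact permutation test, two-sided, p = 0.5, smallest possible p 0.1). By limma on the 3325 genes with a sum of 60 to 400 normalized reads, the mean log2 level of *Jak2* was 0.42 lower in KO, with a log2 difference of -0.42 ± 0.45 (SE, adjusted p = 0.999). The KO mean over the WT mean gave a log2 ratio of -0.36, between the A libraries alone it was -0.22, and without them it was -0.51. Over the 6 libraries the genes of that fit with the most similar pattern were *Rnf168* (r = 0.992) and *Pla2r1* (r = 0.987), the closest of 3324 genes.

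*Stat5b* and *Stat5a* encode the pair of STAT5 proteins and lie head to head on chromosome 11, *Stat5b* on the minus strand (chr11:100780731-100850724) and *Stat5a* on the plus strand (chr11:100859351-100885169), with 8626 bases between them. They are close paralogues, and how reads that match both genes were counted is not given in the sources used here. Per 1000 bases of the length listed in the table, *Stat5b* was the more abundant of the pair, at a mean value of 122 against 43.5 for *Stat5a*, a ratio of 2.82.

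The normalized reads of *Stat5b* were 633, 353 and 814 in WT libraries A, B and C and 601, 660.4 and 568 in KO libraries A, B and C. The 3 KO libraries lay close together, between the lowest and the highest WT library. The means were 599.9 ± 233 in WT and 609.8 ± 46.8 in KO (SD, n = 3 each, exact permutation p = 0.9), and the direction of this difference turned without WT library B or without KO library B. The KO mean over the WT mean gave a log2 ratio of 0.02, with -0.07 between the A libraries and 0.07 without them. The reads of *Stat5b* were chosen among 1678 listed sets by a smaller margin than those of the other members. Only sets with a log2 ratio of mean reads close to the deposited one of 0.02 were listed. The ratio of the means and the exact permutation p of 0.9 are therefore not a check on the deposited ratio.

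*Stat5a* was listed at 147 in WT and 193 in KO, and its log2 ratio of 0.39 exceeded the ratio of 94.3% of all genes. Its normalized reads were 177, 129 and 128 in WT libraries A, B and C and 173, 229 and 184 in KO libraries A, B and C. WT libraries B and C lay below all KO libraries, while WT library A lay between KO libraries A and C, so that the groups overlapped in that 1 library. The means were 145 ± 28.1 in WT and 195 ± 29.6 in KO (SD, n = 3 each, exact permutation p = 0.2). The log2 ratio of the means was 0.43, with -0.03 between the A libraries and 0.68 without them.

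*Socs2*, a STAT5 target whose product attenuates signalling by the growth hormone receptor, lies on the minus strand of chromosome 10 (chr10:95385362-95417180). It was listed at 265 in WT and 125 in KO, a ratio of 2.11, and only 0.4% of all genes had a lower log2 ratio. In WT libraries A, B and C it had 465, 122 and 246 normalized reads, and 144, 64.7 and 129 in KO libraries A, B and C. WT library B lay below KO libraries A and C, so that the groups overlapped. The means were 278 ± 174 in WT and 112 ± 42.1 in KO (SD, n = 3 each, exact permutation p = 0.3), with the larger spread in WT. The log2 ratio of the means was -1.30 over all libraries, -1.69 between the A libraries and -0.93 without them. Leaving out WT library A alone moved the difference of the means from -165 to -71.3 normalized reads.

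*Cish* encodes CIS, another STAT5-induced inhibitor of the same receptor, and lies on the plus strand of chromosome 9 (chr9:107296026-107302784). Its normalized reads were 129, 245 and 215 in WT libraries A, B and C and 44.2, 185 and 227 in KO libraries A, B and C. The A library was the lowest in each genotype, and the remaining 4 libraries overlapped between 185 and 245. The means were 196 ± 60.1 in WT and 152 ± 95.8 in KO (SD, n = 3 each, exact permutation p = 0.6). The difference of the means turned from -44.1 to 9.90 normalized reads without KO library A, and the log2 ratio of the means was -0.37, with -1.55 between the A libraries against -0.16 without them.

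*Bcl6*, the gene of a repressor at STAT5 sites that is also known from germinal centre B cells, lies on the minus strand of chromosome 16 (chr16:23965052-23988852). WT libraries A, B and C had 316, 26.2 and 133 normalized reads, against 524, 68.5 and 240.5 in KO libraries A, B and C. The order A, C, B was the same in both genotypes, and the highest library exceeded the lowest 12.1 times in WT and 7.65 times in KO, the widest range of the 7 members in each genotype. The means were 158 ± 147 in WT and 278 ± 230.1 in KO (SD, n = 3 each, exact permutation p = 0.6). The log2 ratio of these means was 0.81, against 0.38 for the shrunken deposited values, 0.73 between the A libraries and 0.95 without them. Without KO library A the difference of the means was -3.96 normalized reads. The summed value of the 6 lymphocyte markers in the table was 63.6 in WT and 49.2 in KO, and their part in the values of *Bcl6* was not tested.

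In the A libraries of both genotypes *Cish* was thus at its lowest and *Bcl6* at its highest. In WT the order of the 3 libraries was exactly inverse for the pair, with *Cish* falling from B through C to A and *Bcl6* from A through C to B, while in KO *Cish* fell from C through B to A and *Bcl6* from A through C to B. *Jak2* and *Socs2* were also highest in the A library of each genotype. These orders describe 3 libraries a genotype and were noticed in the data. The A libraries of both genotypes deviated alike across 6379 genes (r = 0.694), and the share of all genes with such orders is not given here.

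**Figure D2:**
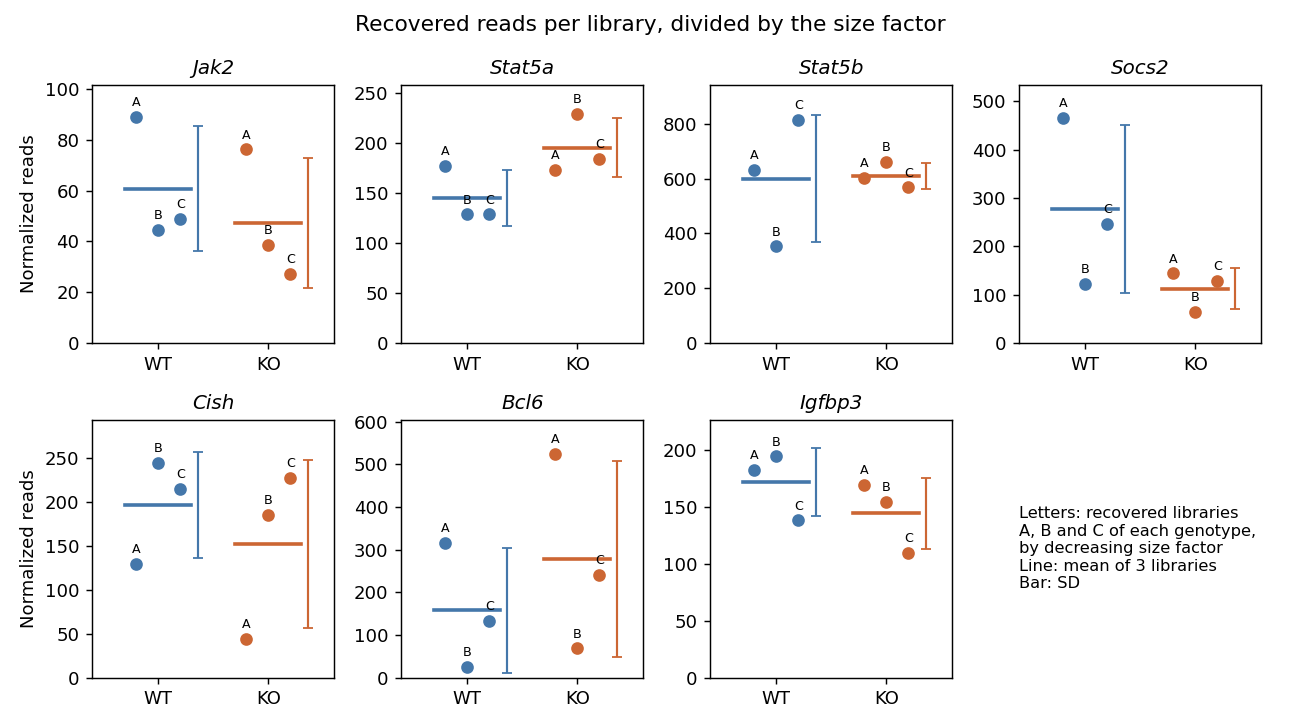
Normalized reads (vertical axes, from 0) of the 7 members with recovered reads, in the 3 WT (blue) and 3 KO (orange) libraries; each point is a library with its letter, lines are means and bars are SDs. WT and KO points overlap in every panel, *Socs2* spans 122 to 465 in WT and 64.7 to 144 in KO, and library A is the lowest for *Cish* and the highest for *Bcl6* in both genotypes.

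The windows before and around the annotated starts of the members were searched for TTCNNNGAA, the palindromic letters of a STAT site. These letters read the same on both strands. Promoters of 300 bases, from 250 bases before to 50 after an annotated start, were taken from RefSeq (GRCm38.p6) and were at hand for 9 of the 10 members (not for *Socs2*), some with several starts. The letters occurred in 8.3% of 32851 such promoters and in 5 of the 15 promoters of the members. Counted per gene, 9.55% of genes had a match in at least one promoter, as did 3 of the 9 members, *Cish*, *Bcl6* and *Igfals*. The *Cish* promoter held 2 matches and the downstream *Bcl6* promoter held 3, where 0.457% of all promoters held 2 or more and 0.0335% (11 promoters) held 3. Since the members were chosen as genes of this pathway, these shares describe them and are not a test. Any link of the matches to the order of the libraries was not tested. The stretches that hold the matches are shown 5′ to 3′ on the strand of the gene, with the matches in capitals, for *Cish* (chr9:107296619-107296678, plus strand), *Bcl6* at its upstream start (chr16:23988922-23989010, minus strand), *Bcl6* at its downstream start (chr16:23981323-23981491, minus strand) and *Igfals* at a pair of starts (chr17:24877594-24877656 and chr17:24878133-24878221, plus strand).
*Cish*: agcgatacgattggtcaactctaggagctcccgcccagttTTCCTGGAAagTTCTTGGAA
*Bcl6*, upstream start: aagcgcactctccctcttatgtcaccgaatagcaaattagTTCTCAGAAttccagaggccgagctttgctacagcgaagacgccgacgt
*Bcl6*, downstream start: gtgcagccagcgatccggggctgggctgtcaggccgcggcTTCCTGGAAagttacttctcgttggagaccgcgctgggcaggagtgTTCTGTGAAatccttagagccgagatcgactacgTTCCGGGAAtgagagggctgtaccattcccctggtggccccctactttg
*Igfals*, first start: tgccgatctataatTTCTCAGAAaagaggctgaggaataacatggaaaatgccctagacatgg
*Igfals*, second start: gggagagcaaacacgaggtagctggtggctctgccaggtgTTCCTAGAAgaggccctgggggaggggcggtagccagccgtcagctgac

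The paired *Cish* matches begin at bases 1 and 12 counted from the annotated start, and those of the downstream *Bcl6* start begin at -168, -122 and -88. The first match is the same 9 letters in *Cish* and at the downstream start of *Bcl6*, and the upstream *Bcl6* match has the same letters as that of the first *Igfals* start. A match of letters is a description of the reference sequence and not a measured site, and no match in the promoters of *Ghr*, *Jak2*, *Stat5a*, *Stat5b*, *Igf1* and *Igfbp3* says only that the letters are not in those windows.

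Among the secreted proteins, *Igf1*, the growth factor of the axis, lies on the plus strand of chromosome 10 (chr10:87858265-87937042). It was listed at 8199.5 in WT and 6824 in KO (log2 ratio -0.26). *Igfals*, the acid-labile subunit that stabilizes the plasma complex, lies on the plus strand of chromosome 17 (chr17:24865997-24882010) and was listed at 3996 in WT and 4069 in KO (log2 ratio 0.03). Neither difference has a replicate check.

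*Igfbp3*, the main binding protein of IGF1 in plasma, lies on the minus strand of chromosome 11 (chr11:7206086-7213923). In WT libraries A, B and C it had 183, 194 and 138 normalized reads, and 169, 154 and 109.5 in KO libraries A, B and C. The C library was the lowest in each genotype and the groups overlapped. The means were 172 ± 29.7 in WT and 144 ± 31.1 in KO (SD, n = 3 each, exact permutation p = 0.4), and the KO mean was the lower one with any 1 library left out. The log2 ratio of the means was -0.25, -0.11 between the A libraries and -0.33 without them.

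Per 1000 bases of listed length, *Igfals* was the most abundant member, with values of 1893 in WT and 1927 in KO, followed by *Ghr* with 1878 and 1575 and *Igf1* with 1159.8 and 965. *Jak2* was the least abundant, with 11.8 and 9.62, so that the mean levels of the members spanned 179 times. *Igfals* and *Ghr* were nearly level in WT. This order depends on the listed lengths, which were 2111 bases for *Igfals*, 1562 for *Ghr* and 7070 for *Igf1*. The 5 members between *Stat5b* and *Jak2* in the plot of levels lay close together, and *Socs2* was the highest of those 5 in WT, at 119, and the third in KO, at 56.6, below *Bcl6* at 74.2 and *Igfbp3* at 59.4.

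**Figure D3:**
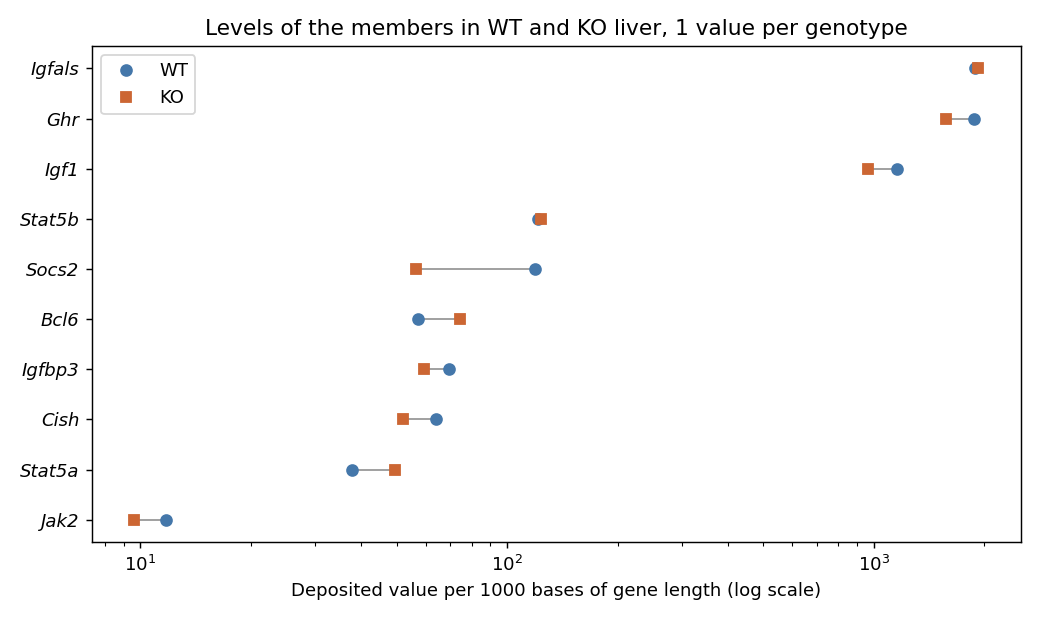
Deposited value per 1000 bases of listed gene length on a log horizontal axis, for the 10 members in WT (blue circles) and KO (orange squares), 1 value per genotype and without error. *Igfals*, *Ghr* and *Igf1* lie between 965 and 1927, *Jak2* between 9.62 and 11.8, and the distance between the genotypes is widest for *Socs2*, at 119 in WT and 56.6 in KO.

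Across genes, limma on the recovered reads of 3325 genes called none at an adjusted p under 0.05 (0%), 54 genes (1.62%) had an unadjusted p under 0.05, and the quasi-likelihood test of edgeR also called none, with 65 such genes (1.95%). *Jak2* was the only member in that range, and a term for the A libraries, with 2 calls (0.0602%) and 7.55% of genes at an unadjusted p under 0.05, did not bring it among them. In a wider set of 6380 genes, added after the data were seen to take in 6 further members, neither limma nor edgeR called a gene (0%), while an unadjusted p under 0.05 was found for 90 (1.41%) and 103 (1.61%) genes. In this set *Socs2* had a log2 difference of -1.17 ± 0.49 (SE, limma, adjusted p = 0.9996), and it was the only member whose unadjusted p was under 0.05 in this fit. It was 0.44 ± 0.26 for *Stat5a* (limma, adjusted p = 0.9996), 0.98 ± 0.91 for *Bcl6*, -0.62 ± 0.57 for *Cish*, -0.26 ± 0.29 for *Igfbp3* and 0.10 ± 0.26 for *Stat5b* (SE). With a term for the A libraries the difference of *Socs2* had the same size with an SE of 0.32 (limma, unadjusted p = 0.00232, adjusted p = 0.221), in a fit that had 574 of 6380 genes (9%) with an unadjusted p under 0.05 and none with an adjusted one. Without both A libraries it was -0.91 ± 0.41 (SE, limma, adjusted p = 0.857, 5.61% of genes with an unadjusted p under 0.05). The unadjusted p of *Cish* was under 0.05 with the term (limma, adjusted p = 0.535) and that of *Stat5a* was under 0.05 without both A libraries (limma, adjusted p = 0.857). None of the 7 members passed the adjusted test in any of these fits.

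The receptors, kinases and STAT proteins beside the members numbered 12, all in the table. One of them was past the limit of 0.5 in each direction, where 2.83% of all genes were past it on the higher and 7.3% on the lower side, and the median log2 ratio was 0.11 against -0.04 over all genes. *Lepr*, the leptin receptor, was listed at 491 in WT and 310 in KO (log2 ratio -0.66), and *Il6ra*, the binding chain of the interleukin 6 receptor, at 349 and 533 (0.61). *Stat2* had the next lowest log2 ratio of -0.19. *Prlr*, the prolactin receptor, which also uses JAK2 and STAT5, had a log2 ratio of 0.11.

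Of 17 inhibitors and adaptors, 1 was past the limit, on the lower side, where 7.3% of all genes were, and the median log2 ratio was -0.0022. *Ptpn2*, a tyrosine phosphatase of JAK and STAT proteins, was listed at 61.2 in WT and 40.1 in KO (log2 ratio -0.61). Read by library, it had 90.6, 60.3 and 40.4 normalized reads in WT libraries A, B and C and 61.0, 27.0 and 24.8 in KO libraries A, B and C, with overlap (exact permutation p = 0.3). Its mean reads had a log2 ratio of -0.76, and -0.96 without both A libraries. *Pias1* had a log2 ratio of -0.30, *Ptpn11* of 0.32, *Socs5* of 0.32 and *Socs3*, the inhibitor best known from interleukin 6 signalling, of 0.12. The reads of *Socs3* overlapped between the genotypes (148 ± 80.6 in WT and 163 ± 41.4 in KO, SD, n = 3 each, exact permutation p = 0.8), with a log2 ratio of the means of 0.14, and 0.09 without both A libraries.

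Of 17 further genes of the IGF system, 16 were in the table. Past the limit were 2, both on the higher side, where 2.83% of all genes were, and the median log2 ratio was -0.04. *Igfbp1*, a binding protein gene that fasting and low insulin induce, was listed at 1905 in WT and 2893 in KO (log2 ratio 0.60), and *Irs2*, an adaptor of the insulin receptor, at 226 and 381 (0.75). *Igfbp2* (-0.23), *Igfbp6* (-0.25) and *Igfbp7* (-0.29) were on the lower side without reaching the limit. The IGF1 receptor gene *Igf1r* was listed at 22.5 and 21.9 (-0.04), and the insulin receptor gene *Insr* had a log2 ratio of -0.14. No reads per library were recovered for *Igfbp1* and *Irs2*.

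Of 14 genes known as male-biased and growth hormone responsive in mouse liver, 3 were past the limit on the lower and 1 on the higher side, where 7.3% and 2.83% of all genes were, and the median log2 ratio was -0.19. *Selenbp2* had a log2 ratio of -0.86, *Mup3*, of the major urinary protein family, of -0.58, *Slco1a1*, an organic anion transporter, of -0.56, *Cyp4a12b* of 0.36 and *Susd4* of 0.75. Members of the Mup and Cyp4a families share near-identical copies, and the split of their reads is uncertain. None of these 5 genes has recovered reads.

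Of 22 female-biased genes 18 were in the table, with a median log2 ratio of -0.03, and 8 had a mean value of at least 10. Of the 18, 3 were past the limit on the lower and 1 on the higher side, where 7.3% and 2.83% of all genes were. *Cux2*, a transcription factor gene, was listed at 47.8 in WT and 25.1 in KO (-0.93). Its normalized reads were 43.3, 5.69 and 114 in WT libraries A, B and C and 23.6, 2.90 and 29.4 in KO libraries A, B and C, lowest in library B of each genotype and overlapping (exact permutation p = 0.4), and the log2 ratio of the means was -1.54, and -1.89 without both A libraries. *Fmo2* had a log2 ratio of -0.75, with WT library A at 336 normalized reads and the other 5 libraries between 58.9 and 138 (exact permutation p = 0.5), and its log2 ratio of mean reads went from -0.97 to -0.50 without both A libraries. *Tox* had a log2 ratio of 0.83, with reads of 24.8 ± 15.6 in WT and 52.4 ± 12.9 in KO (SD, n = 3 each, exact permutation p = 0.2). Its mean reads had a log2 ratio of 1.08, -0.07 between the A libraries and 1.85 without them. *Acot3* had a log2 ratio of 0.49.

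Of 9 liver transcription factor genes linked to the growth hormone response, *Klf10* alone was past the limit, on the higher side, where 2.83% of all genes were. The median of the list was -0.06. *Klf10* was listed at 133 in WT and 233 in KO (log2 ratio 0.80). Its normalized reads were 161, 84.2 and 133 in WT libraries A, B and C and 276, 316 and 129.8 in KO libraries A, B and C, so that KO library C fell among the WT libraries (exact permutation p = 0.3). On the log2 scale the ratio of the means was 0.93, and 1.03 without both A libraries. *Onecut1* had a log2 ratio of -0.22, *Rarb* of -0.19 and *Hnf4a* of 0.23. In the plot of the lists most points lie inside the limit in every list other than the Y-linked genes. Of those, 3 of 4 are past it on the lower side, where 7.3% of all genes are. The median of the members is the lowest apart from that list.

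**Figure D4:**
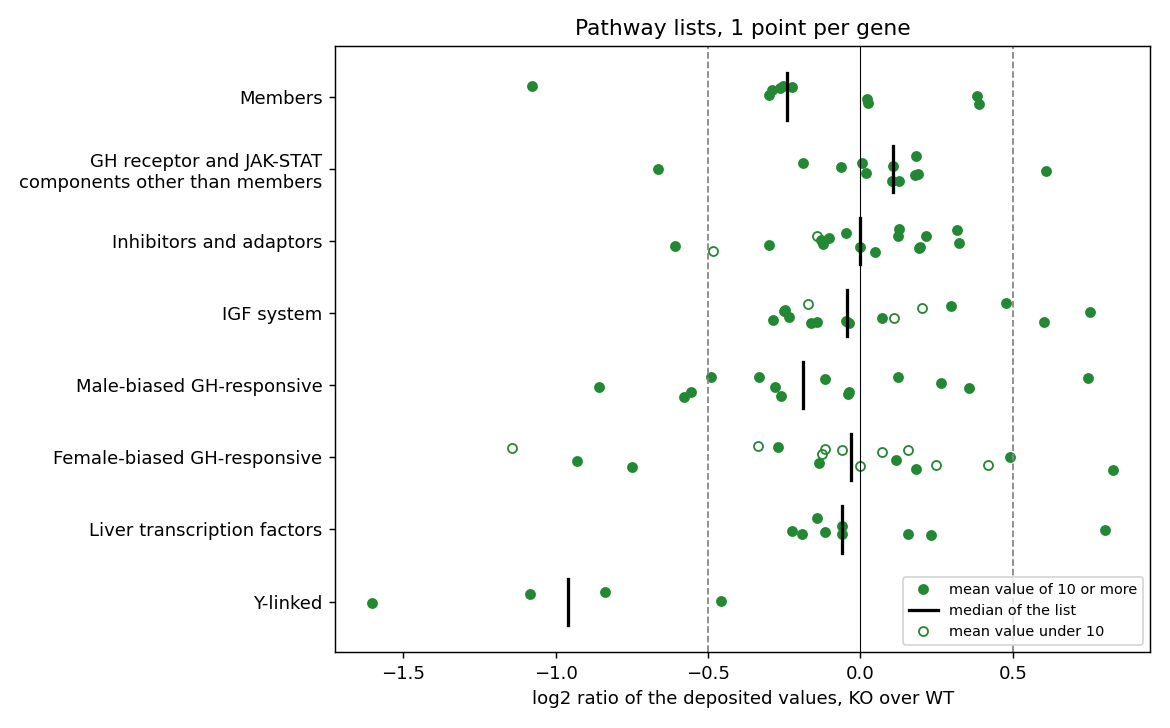
Log2 ratio of the deposited values, KO over WT (horizontal axis), for the members and 7 lists of related genes, 1 point per gene; filled points have a mean value of at least 10, open points a lower one, bars are medians and dashed lines mark 0.5. The medians of the lists run from -0.19 for male-biased genes to 0.11 for receptors and STAT genes, apart from the 4 Y-linked genes at -0.96.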

How the data were processed

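RNAseq of 6 pooled liver samples was mapped to mm10, and the submitters' processing notes name HISAT2, StringTie, Cufflinks, GATK, Bowtie2 and RSEM, without versions or roles. The authors deposited, for 16123 genes, an expression signal for each genotype, which combines its 3 libraries on the scale of reads divided by size factors, together with the log2 ratio, p-value, adjusted p-value and direction of their own comparison, which were not used. They also deposited clean read counts, raw read totals and the percent of ribosomal and uniquely mapped reads per library. Gene positions came from GENCODE M21 (GRCm38). The 10 members and all gene lists were chosen with earlier results of these data known.

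Log2 ratios, KO over WT, were computed from the deposited values. Genes with a single read gave the worth of a read in each library. For sums of normalized reads up to 400, all sets of whole reads that give a gene's mean were listed. Above 400, sets were listed only if their log2 ratio of mean reads lay in a range set by the deposited log2 ratio. This range was narrower for *Stat5b*. All 8081 genes whose normalized reads summed to 400 or less were resolved, most of them by a single set. Where several sets were left, the model of DESeq2 (version 1.42.0) with a prior on the ratio was refitted, and the set that gave the deposited ratio was taken, which resolved 3054 of 3085 genes of a sum above 400, as far as sets were listed, and *Stat5b*. Such reads are therefore not independent of the deposited ratio. This step was chosen after the data were seen and tested on simulated data. The refitted model gave the deposited log2 ratio of 1229 held-out genes with a single set to within a median of 2.99e-06, and 1192 of them (96.99%) lay within the difference allowed when a set was chosen. *Jak2* rests on a single set and the other recovered members on the choice among 17 to 1678 sets.

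Recovered reads were compared by two-sided exact permutation tests of mean normalized reads and by limma (version 3.58.1, trend, log2(normalized reads + 1), Benjamini-Hochberg adjustment over the genes in the fit), with edgeR (version 4.0.16) as an addition. Alternatives were pseudocounts, limits of 1 and 0.25, centring, other size factors, left-out libraries and a term for the A libraries. Named list genes are the 2 highest and 2 lowest log2 ratios of each list at a mean value of at least 10, and all past 0.5, besides *Igfbp1*, *Igfbp2*, *Igf1r*, *Insr*, *Prlr*, *Socs3* and *Cux2*. Some list genes are not reported here by name. The splicing event table was not used.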

Additional observations from a re-analysis of the deposited data

How the results depend on the processing

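No paired analysis was possible because no pool number is known for a recovered library and the labels of the genotypes share a single number. Pseudocounts of 1 or 0.1, added to both values, cannot turn the direction of a deposited log2 ratio. Centring on the median of genes whose mean value reached 1 (-0.047) shifts all ratios alike. It could turn only a negative ratio smaller in size than this median, and no member had one. Neither alternative is therefore a check on direction. The centring moved *Ghr* to -0.21, *Igf1* to -0.22 and *Igfals* to 0.074, more than their counting error, which leaves out the spread between libraries. *Socs2* stayed past the limits of 0.5 and 1, while 7 members were past 0.25. Of these, *Ghr*, *Igf1* and *Jak2* fell inside 0.25 after centring. At a limit of 1 the counts of the receptor, inhibitor, IGF, male-biased and transcription factor lists went to 0, and that of the female-biased list to 1. With a term for the A libraries limma called 2 of 3325 genes, and with 1 library left out it called 0, with 21 to 169 genes at an unadjusted p under 0.05 (169 without KO library A, 136 without WT library A, 139 without WT library C). With 1 library left out the log2 differences by limma ranged from -1.66 to -0.70 for *Socs2*, -1.05 to 0.11 for *Cish*, 0.00 to 1.77 for *Bcl6*, 0.32 to 0.59 for *Stat5a*, -0.24 to 0.36 for *Stat5b*, -0.41 to -0.07 for *Igfbp3* and -0.82 to -0.09 for *Jak2*. The differences in mean normalized reads ranged from -243 to -71.3 for *Socs2*, -81.5 to 9.90 for *Cish*, -3.96 to 224 for *Bcl6*, 33.8 to 66.8 for *Stat5a*, -114 to 117 for *Stat5b*, -44.3 to -10.0 for *Igfbp3* and -27.9 to 0.67 for *Jak2*. They turned without KO library A for *Cish* and *Bcl6*, without WT library A for *Jak2* (0.67), and without WT library B (-114) or KO library B (-15.4) for *Stat5b*. The cause was not tested. With 3 libraries a genotype the exact test cannot go below p = 0.1, and the 3 members without recovered reads have no error between libraries.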

Other observations

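The Y-linked genes of these males, which stood among the lists because sex and growth hormone responses overlap in liver, were all lower in KO, with log2 ratios of -1.60 for *Ddx3y*, -1.08 for *Eif2s3y*, -0.84 for *Uty* and -0.46 for *Kdm5d*. *Ddx3y* had 325, 80.8 and 53.8 normalized reads in WT libraries A, B and C and 62.5, 18.3 and 15.8 in KO libraries A, B and C, highest in the A library of each genotype and overlapping (exact permutation p = 0.2), and the log2 ratio of its mean reads was -2.25, and -1.98 without both A libraries. For *Eif2s3y* the log2 ratio of mean reads was -1.40 (exact permutation p = 0.2), and -1.44 without both A libraries. For *Uty* it was -1.53 (exact permutation p = 0.6), and only -0.21 without them. WT libraries A, B and C held 94.7, 5.69 and 7.34 normalized reads of *Uty*. For *Kdm5d* it was -0.57 (exact permutation p = 0.6), and -0.20 without both A libraries. Every library held reads of all 4 genes, and *Xist* was not among the genes of the table.

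Of the other cell types, none of 8 sinusoidal endothelial markers was past a log2 ratio of 0.5 (median -0.03), where 10.1% of all genes were past it (2.83% higher and 7.3% lower), against 2 of 8 Kupffer cell markers, both higher in KO (median 0.14), 3 of 8 stellate cell and fibroblast markers (median -0.11), 1 of 7 cholangiocyte markers (median -0.03) and, on values that were mostly low, 2 of 6 lymphocyte (median -0.34) and 1 of 4 pancreatic acinar markers (median 0.29). The red cell markers had a median of 0.67, with 1.47 for the band 3 gene *Slc4a1*, whose reads were 34.7 ± 13.2 in WT and 141 ± 132 in KO (SD, n = 3 each, exact permutation p = 0.3). The log2 ratio of these means was 2.02, 0.41 between the A libraries and 2.25 without them. *Adgre1*, the gene of the macrophage marker F4/80, was singled out after its values were seen: its reads did not overlap between the genotypes, at 77.4 ± 4.84 in WT and 114 ± 14.9 in KO (SD, n = 3 each, exact permutation p = 0.1, the smallest possible), a separation that 5.5% of 6379 genes had. The log2 ratio of its means was 0.56 with and without both A libraries.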
